A study of Homo sapiens with 15 samples.

Results

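The 9 genes described here handle heme and iron: the heme oxygenases HMOX1 and HMOX2, the ferritin chains FTL and FTH1, the biliverdin reductases BLVRA and BLVRB, the transferrin receptor TFRC, the iron exporter SLC40A1 and FECH, the enzyme that inserts iron to form heme. They were chosen by name, with earlier results of these data known, and each of the 9 symbols matched 1 of the 58219 genes in the count table. Their RNA was measured in BEAS-2B, an immortalised line of human bronchial epithelial cells that was grown without serum on collagen-coated plates. PM2.5, fine particulate matter taken from air filters in Beijing and sonicated off in water, was added for 24 h at 1 or 30 µg/cm2, beside a vehicle control. In the repeated protocol, cells received 1 µg/cm2 or vehicle each day with washes in between. The labels give 7 days of exposure, whereas the study's methods speak of 6 exposures before cells were collected on day 7. Each of the 5 conditions had 3 libraries from independent experiments, and the submitters state that the experiment number marks a batch. All cells came from 1 cell line, and the particles were collected in 1 city during 1 winter period.

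Heme oxygenase opens the heme ring and releases iron, carbon monoxide and biliverdin, which biliverdin reductase turns into bilirubin. Released iron is stored in ferritin, a shell of light chains (FTL) and heavy chains (FTH1, which oxidises the iron), or leaves the cell through ferroportin (SLC40A1), while the transferrin receptor brings iron in. In airway cells, HMOX1 is known as a gene induced by oxidants and by heme, and the iron regulatory proteins are known to control ferritin, ferroportin and transferrin receptor RNAs after transcription by binding a hairpin in their untranslated regions.

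This hairpin, the iron-responsive element, is shown because it is the sequence that joins 4 of the 9 genes. A search of GENCODE's MANE Select transcripts on GRCh38 took an unpaired C, a stem of 5 base pairs and the loop CAGTGN, 17 bases in all and with no G at the last loop base, on the RNA strand. FTL, FTH1 and SLC40A1 had 1 match each in the 5′ untranslated region and TFRC had 4 in the 3′ untranslated region. Over all 19061 coding transcripts searched, 0.0577% had a match in the 5′ and 0.509% in the 3′ untranslated region. In the 29-base stretches printed here, the loop is in capitals.
FTL, 5′ untranslated region, chr19:48965335-48965363, plus strand: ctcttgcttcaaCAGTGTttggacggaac
SLC40A1, 5′ untranslated region, chr2:189580661-189580689, minus strand: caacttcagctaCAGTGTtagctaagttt
TFRC, 3′ untranslated region, chr3:196050979-196051007, minus strand: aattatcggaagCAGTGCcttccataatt
TFRC, 3′ untranslated region, chr3:196050575-196050603, minus strand: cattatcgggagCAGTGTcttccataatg
TFRC, 3′ untranslated region, chr3:196050510-196050538, minus strand: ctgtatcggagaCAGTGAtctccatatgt
TFRC, 3′ untranslated region, chr3:196050463-196050491, minus strand: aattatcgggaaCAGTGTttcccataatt
HMOX1, HMOX2, BLVRA, BLVRB and FECH had no match to these letters. The matches are a description of sequence, and binding to them was not measured.

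Levels are counts scaled to library size (CPM, the usual per-library unit) after TMM normalization, and each library held 21460981 to 34724765 counted reads. Epithelial identity was checked with 7 keratin and junction genes, all at a median of at least 1 CPM. Their summed level was 3650 to 4160 CPM in the 24-h controls and 1560 to 2620 CPM at 30 µg/cm2, and in the repeated protocol it was 2950 to 3510 CPM in the controls and 1930 to 2210 CPM after daily PM2.5. Whether this difference has a part in the results was not tested. Of 5 erythroid genes, HBA1, HBA2, HBB and SLC4A1 had at most 3 counts in every library. Of 6 macrophage genes, CD14 alone reached a median of 1 CPM, PTPRC had at most 3 counts in every library, and CD163 and AIF1 had none. The summed level was 0 to 0.347 CPM for the erythroid genes, 2.6 to 24 CPM for the macrophage genes and 1.53 to 14.2 CPM for 4 hepatocyte genes, of which SERPINA1 alone reached a median of 1 CPM. As in any bulk library, a change in RNA per cell and a change in the mix of cells cannot be told apart.

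The libraries of 24-h experiment 2 stood apart from those of experiments 1 and 3 for most of these genes. Its control had 1.62 times the HMOX1, 1.69 times the FTL, 1.52 times the BLVRA, 2.27 times the BLVRB and 2.11 times the SLC40A1 of the mean of the other 2 controls. TFRC was the opposite, at 0.319 times that mean. The ratios for HMOX2, FTH1 and FECH were 0.83, 1.18 and 1.01. The cause of this difference was not tested. Calls of the 9 genes that changed when experiment 2 was left out are named with the results.

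**Figure D1:**
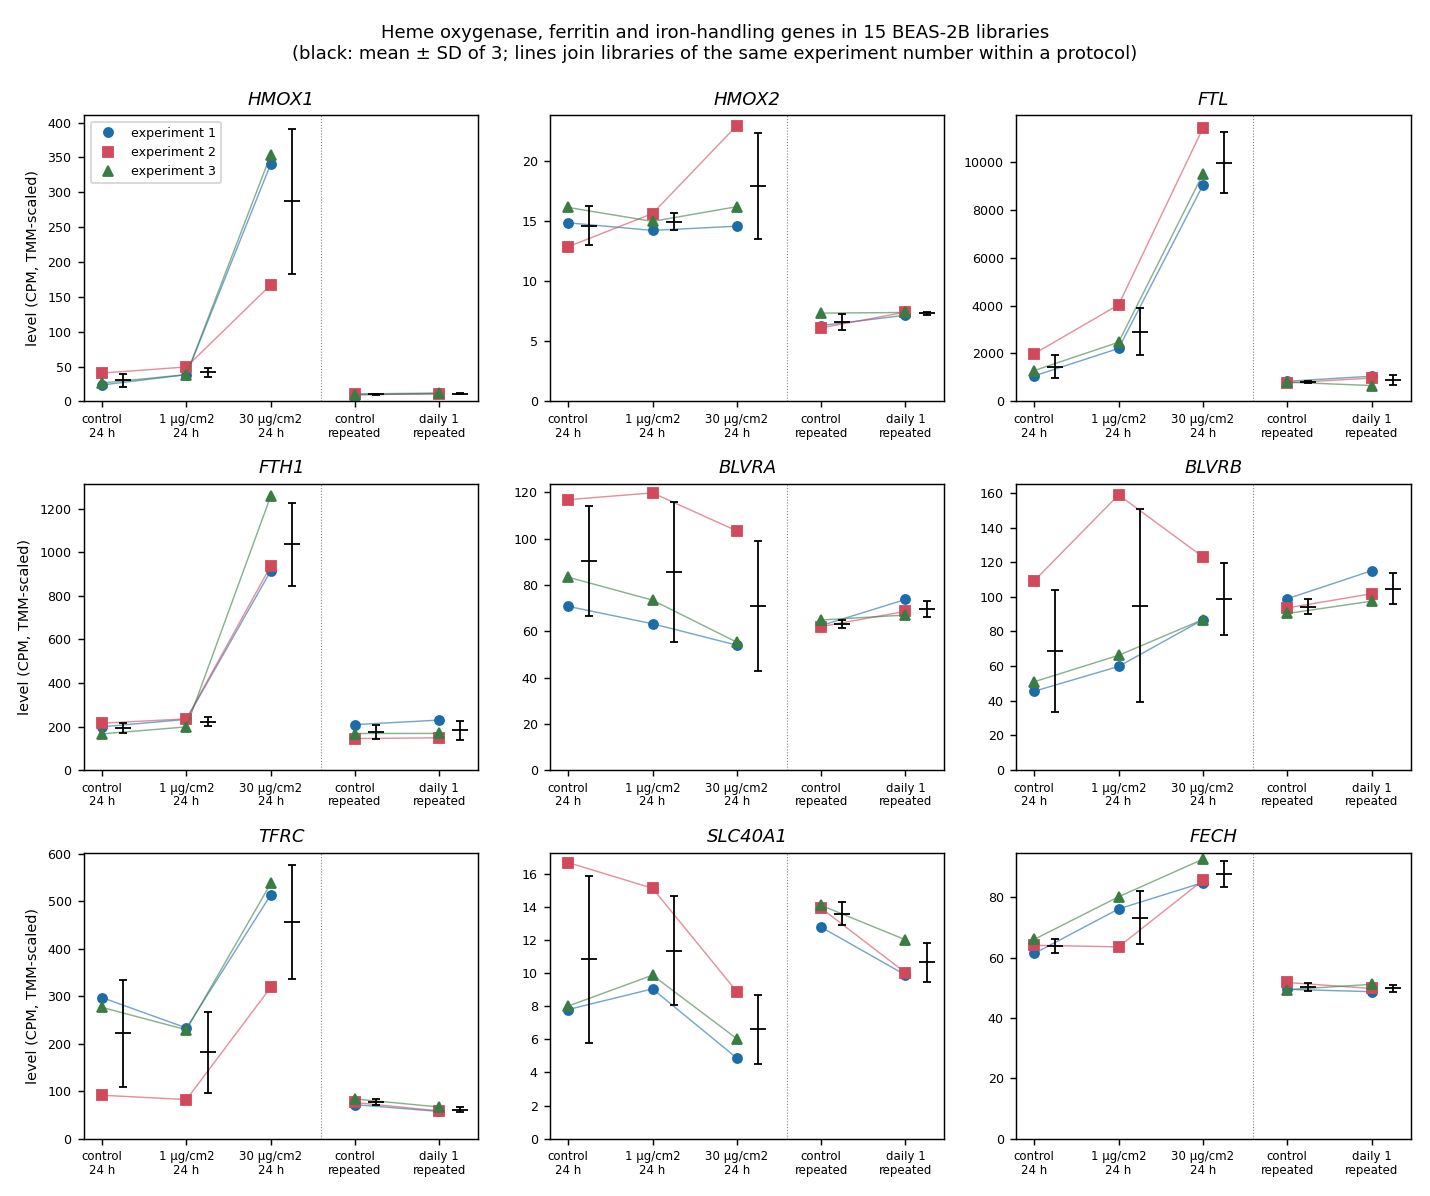
Level (CPM, TMM-scaled) of the 9 genes in each of the 15 libraries, with a symbol and colour for each experiment number, lines joining libraries of the same number within a protocol, and the mean ± SD of 3 in black. FTL lies between 9014 and 11391 CPM in the 3 libraries at 30 µg/cm2 and at or under 1990 CPM in every control, and TFRC of 24-h experiment 2 lies under that of experiments 1 and 3 at each dose.

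Ferritin RNA was the most abundant of the group. On a scale of CPM per kb of countable transcript, meaning the MANE Select bases that the authors' annotation counts for the gene and for no other gene, FTL stood at 1664 ± 554 and FTH1 at 599 ± 77.3 in the 24-h controls (SD, n = 3). BLVRB (88.2 ± 45.4) and BLVRA (84.1 ± 22.2) followed, with overlapping libraries, then TFRC at 44.2 ± 22.6, HMOX1 at 19.5 ± 5.88, FECH at 16.9 ± 0.622, HMOX2 at 8.73 ± 0.984 and SLC40A1 at 3.25 ± 1.52. TFRC overlapped HMOX1, and HMOX1 overlapped FECH, while the other neighbours in this order did not overlap. At 30 µg/cm2, HMOX1 stood next after the ferritin chains, at 185 ± 67.0 CPM per kb, and overlapped BLVRB (127 ± 26.9).

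The first comparison asks how a single high dose changed these genes over 24 h. HMOX1, the inducible heme oxygenase (ENSG00000100292.16, chromosome 22 from 35380361 to 35394214, plus strand, GRCh38), stood at 23.7, 40.7 and 26.5 CPM in the controls of experiments 1, 2 and 3. After 30 µg/cm2 it stood at 341, 167 and 354 CPM. All treated libraries were above all controls, and experiment 2 had the highest control and the lowest treated value. The rise within an experiment was 14.4-fold, 4.11-fold and 13.3-fold. The fit put the fold-change at 9.49 (log2 3.25, SE 0.272), with an adjusted p of 1.49e-05 (quasi-likelihood test of edgeR, adjusted by Benjamini-Hochberg over 17599 genes). HMOX2, the constitutive heme oxygenase (chromosome 16 from 4474690 to 4510347, with 228 of 3793 exon bases shared with NMRAL1 on the other strand), stood at 14.8, 12.9 and 16.1 CPM in the controls and at 14.6, 22.9 and 16.2 CPM at 30 µg/cm2. Its treated library of experiment 2 stood above all controls, that of experiment 3 only just (16.19 against 16.12 CPM), and that of experiment 1 did not. Its log2 fold-change of 0.29 (adjusted p = 0.312) was -0.03 without the 24-h libraries of experiment 2.

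Both ferritin chains rose at 30 µg/cm2. FTL (ENSG00000087086.14, chromosome 19 from 48965301 to 48966878, plus strand) had 1065, 1990 and 1289 CPM in the controls and 9014, 11391 and 9475 CPM after treatment, a rise of 8.46-fold, 5.72-fold and 7.35-fold within experiments. The edgeR fit gave FTL a log2 fold-change of 2.78, with an SE of 0.279 and an adjusted p of 4.39e-05. FTH1 (ENSG00000167996.15, chromosome 11 from 61959718 to 61967660, minus strand) had 199, 215 and 166 CPM in the controls and 915, 938 and 1258 CPM after treatment. The groups did not overlap (log2 fold-change 2.42, SE 0.201, adjusted p = 1.46e-05, edgeR). By raw counts, FTL ranked 24th to 64th among all genes in the 24-h controls and first in all 3 libraries at 30 µg/cm2. FTL and FTH1 together took 0.121%, 0.214% and 0.134% of all counted reads in the controls and 0.992%, 1.09% and 1.04% at 30 µg/cm2.

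BLVRA and BLVRB, which act on biliverdin, did not pass the test at 30 µg/cm2. BLVRA (chromosome 7) had 70.7, 117 and 83.4 CPM in the controls and 54.0, 103 and 55.3 CPM after treatment, lower within each of the 3 experiments, with a log2 fold-change of -0.35 (adjusted p = 0.488). BLVRB (chromosome 19) had 45.5, 109 and 51.0 CPM in the controls and 86.8, 123 and 86.9 CPM after treatment. It was higher in each experiment, while the groups overlapped, with the control of experiment 2 above both other treated libraries. Its log2 fold-change was 0.53 (adjusted p = 0.416), and it was 0.64 and passed once the experiment number entered the fit as a replicate block (adjusted p = 0.00439). Without the libraries of experiment 2 it was 0.83 and passed (adjusted p = 5.4e-06). With single libraries left out it lay between 0.28 (the control of experiment 1) and 1.03 (the control of experiment 2), and passed in none of these fits. FECH, which inserts iron into the heme ring (chromosome 18), had 61.4, 64.1 and 66.0 CPM in the controls and 84.8, 85.6 and 92.6 CPM after treatment. All treated libraries were above all controls, and its adjusted p was 0.0117, but its log2 fold-change of 0.46 (SE 0.103) was under the threshold of 0.6 used for a call.

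TFRC, which takes up transferrin-bound iron (ENSG00000072274.12, chromosome 3 from 196027183 to 196082189, minus strand), had 297, 91.3 and 276 CPM in the controls and 513, 319 and 537 CPM at 30 µg/cm2. The lowest treated library was above the highest control, and the ratio within experiments was 1.73, 3.49 and 1.94. The log2 fold-change of 1.04 did not pass (SE 0.406, adjusted p = 0.130, edgeR). It passed with the replicate block (log2 1.19, SE 0.155, adjusted p = 0.00012), without the libraries of experiment 2 (log2 0.86, adjusted p = 1.44e-06) and without a filter on low counts (log2 1.03, adjusted p = 0.0111). It also passed when the experiment 2 library at 1 µg/cm2 was left out (log2 1.04, adjusted p = 0.0457). SLC40A1, ferroportin (ENSG00000138449.10, chromosome 2 from 189560579 to 189583758, minus strand), had 7.80, 16.7 and 8.01 CPM in the controls and 4.87, 8.88 and 6.03 CPM at 30 µg/cm2. It was lower in each experiment, at 0.624, 0.533 and 0.754 times the control, while the groups overlapped through experiment 2. The log2 fold-change of -0.71 (SE 0.301) did not pass (adjusted p = 0.167), and with the replicate block it was -0.68 and passed (adjusted p = 0.00157). Without the libraries of experiment 2 it was -0.56, under the fold threshold (adjusted p = 0.00625). Leaving out the treated library of experiment 2 alone gave -0.996, which passed (adjusted p = 0.0488), and leaving out its control alone gave -0.26 (adjusted p = 0.636). The call with the block was the only one among the 11 alternatives that left out no single library.

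In all, 3 of the 9 genes were called higher and none lower at 30 µg/cm2, where 3.82% of the 17599 genes tested were called higher and 4.24% lower. With the replicate block, 5 were called higher and 1 lower, against 7.36% and 7.87% of genes tested. HMOX1, FTL, FTH1, TFRC and FECH, 5 of the 9, had every treated library above every control, which held for 11.7% of genes tested. The median log2 fold-change was 0.53 over the 9 genes and 0.03 over all genes tested. Because the 9 genes were chosen with earlier results of these data known, these shares and medians are a description only. Against 1 µg/cm2 in place of the control, 30 µg/cm2 raised HMOX1 by 2.77, FTL by 1.78 and FTH1 by 2.22 on the log2 scale, all called (adjusted p = 6.59e-05, 0.00111 and 5.11e-05), where 3.62% of genes were called higher and 4.22% lower. The call of FTL in that comparison was lost when only the compared libraries were fitted (adjusted p = 0.0532). TFRC (log2 1.33, adjusted p = 0.0550) and SLC40A1 (log2 -0.78, adjusted p = 0.124) were called there only with the replicate block (log2 1.46 and -0.80, adjusted p = 3.11e-05 and 0.000506, where 6.97% of genes were called higher and 8.58% lower) or under some other settings: without experiment 2, without its control or its library at 30 µg/cm2 and, for TFRC, in DESeq2, in the likelihood ratio test and without a filter.

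**Figure D2:**
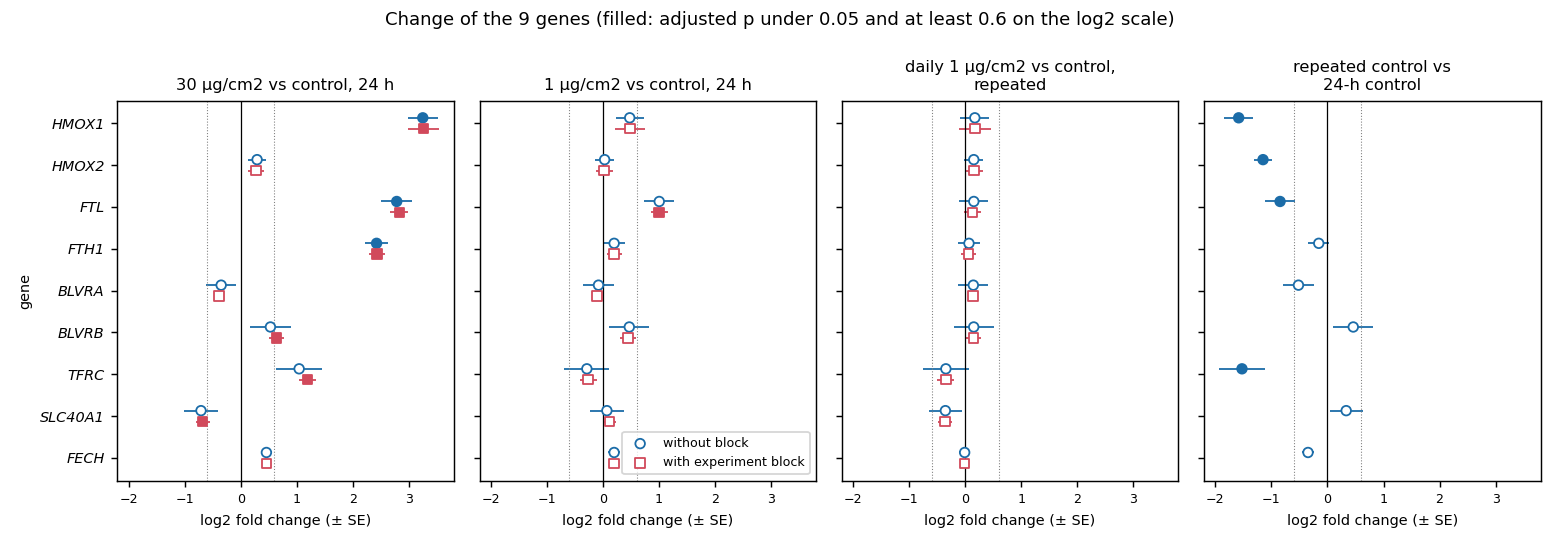
Log2 fold-change with its SE for the 9 genes in 4 comparisons, from the edgeR fit without a block (circles) and with the experiment number as a block (squares, not possible between protocols). Filled symbols passed both thresholds, an adjusted p under 0.05 and 0.6 on the log2 scale (dotted lines), and only HMOX1, FTL and FTH1 are filled in both fits at 30 µg/cm2.

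The second comparison asks what a dose of 1 µg/cm2 did over 24 h, against the same 3 controls. FTL stood at 2211, 4029 and 2469 CPM, all above the highest control of 1990 CPM, and was 2.08, 2.03 and 1.92 times its control within experiments. Without a block, its log2 fold-change of 1.00 (SE 0.264) did not pass (adjusted p = 0.654). It was again 1.00 (SE 0.151) in the fit with the replicate block, and passed (adjusted p = 0.0103), as it did without the libraries of experiment 2 (adjusted p = 0.00132) and without a filter on low counts (adjusted p = 0.0360). FTH1 stood at 233, 235 and 198 CPM, 1.17, 1.09 and 1.19 times its control, and its log2 fold-change was 0.20 with and without the block (adjusted p = 1 without it).

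HMOX1 stood at 38.4, 49.5 and 38.5 CPM at 1 µg/cm2. It was above its control in each experiment (1.62, 1.21 and 1.45 times), while the control of experiment 2 lay above both other treated libraries. Its log2 fold-change of 0.48 did not pass (SE 0.252, adjusted p = 1), and without the libraries of experiment 2 it was 0.63 and passed (adjusted p = 0.000588). TFRC was below its control in each experiment, at 0.785, 0.901 and 0.83 times, with a log2 fold-change of -0.29 (adjusted p = 1).

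None of the 9 genes was called at 1 µg/cm2 by the edgeR quasi-likelihood test, where 0.0625% of genes tested were called in either direction. FTL alone had an unadjusted p under 0.05 in that edgeR fit. DESeq2 and the likelihood ratio test called 0 of 9, and the replicate block called FTL alone, against 0.42% of genes. FTL was also the one gene of the 9 whose groups did not overlap, which held for 2.31% of genes in the upward direction. For the other 5 genes, the log2 fold-change lay between -0.08 (BLVRA) and 0.47 (BLVRB).

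The proportion of the ferritin chains was compared by the ratio of FTL to FTH1, both per countable kb. It was 2.77 ± 0.728 in the 24-h controls, 4.84 ± 1.43 at 1 µg/cm2 and 3.66 ± 0.858 at 30 µg/cm2 (SD, n = 3). At 1 µg/cm2 the ratio was higher than the control within each experiment and the groups did not overlap. The exact two-sided permutation test gave p = 0.1, which is the smallest value that 3 libraries against 3 can give (adjusted p = 0.3 over 3 comparisons). At 30 µg/cm2 the groups overlapped (exact permutation p = 0.3, adjusted p = 0.45), and experiment 3 had a lower ratio than its control. After daily exposure the ratio was 1.87 ± 0.512 against 1.75 ± 0.245 in the repeated controls (exact permutation p = 0.9). The level of the ratio depends on a limit of the counting: BEST1, on the other strand, covers 880 of the 1203 bases of the FTH1 transcript. Reads on shared bases were not counted, which left 323 countable bases of this transcript. The FTH1 counts can also hold reads from its other exons (763 of all 2030 exon bases were countable), while the scale divides by 323 only.

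**Figure D3:**
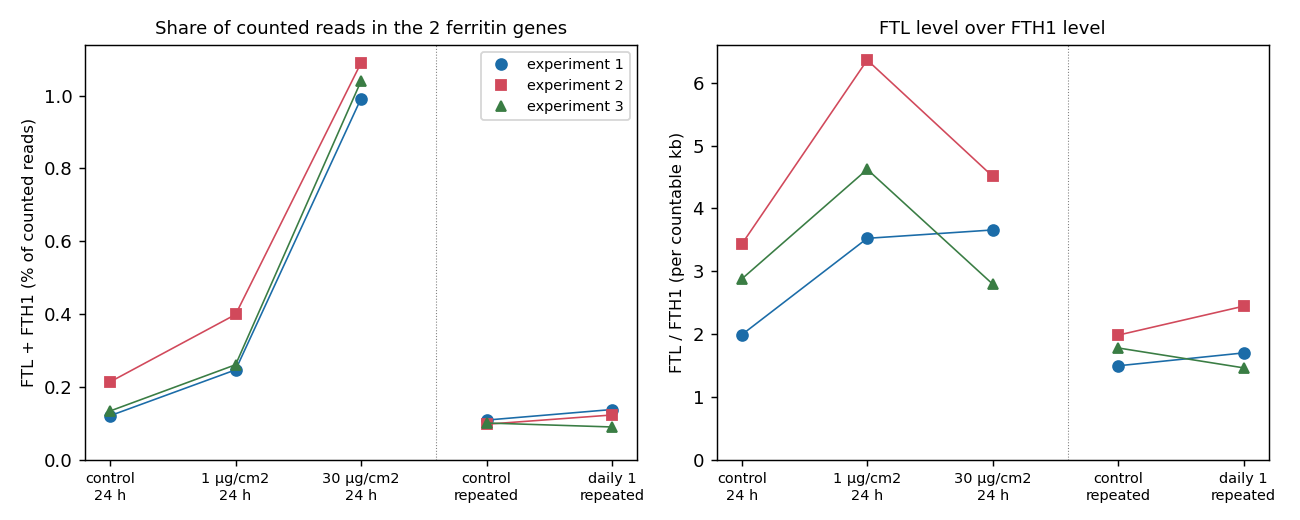
Share of all counted reads that fell on FTL and FTH1 (left, percent) and the ratio of FTL to FTH1 per countable kb (right) in each library, with lines joining the same experiment number within a protocol. The share passes 0.99% in all 3 libraries at 30 µg/cm2 and stays under 0.22% in all controls, and the ratio is above its control in each experiment at 1 µg/cm2.

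Reads of the ferritin genes can be shared with processed pseudogenes. The table held 16 FTL pseudogenes, of which 9 had any count, and 25 FTH1 pseudogenes, of which 19 had any. Their summed counts were 0.0284% to 0.112% of FTL and 0.911% to 1.96% of FTH1 counts in a library. FTLP3 went from a mean of 0.444 CPM in the 24-h controls to 4.64 CPM at 30 µg/cm2, and FTH1P15 from 1.44 to 8.85 CPM, both in the direction of their parent. Adding these counts to the parents changed no call of FTL or FTH1. The addition covers only reads already counted for a pseudogene.

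The third comparison asks what daily exposure to 1 µg/cm2 did. HMOX1 had 10.8, 10.2 and 9.29 CPM in the repeated controls and 12.0, 10.6 and 11.5 CPM after daily PM2.5 (log2 0.17, SE 0.258, adjusted p = 0.845). FTL had 841, 773 and 805 CPM in the controls and 1051, 976 and 663 CPM after daily PM2.5, higher in experiments 1 and 2 and lower in experiment 3 (log2 0.15, adjusted p = 0.863). FTH1 had 209, 145 and 168 CPM in the controls and 230, 148 and 168 CPM after daily PM2.5 (log2 0.07, adjusted p = 0.923). The treated and control libraries of all 3 genes overlapped.

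TFRC had 71.6, 76.2 and 83.5 CPM in the repeated controls and 57.3, 58.2 and 66.6 CPM after daily PM2.5, with no overlap. SLC40A1 had 12.8, 13.9 and 14.1 CPM in the controls and 9.88, 10.02 and 12.0 CPM after daily PM2.5, again with no overlap. Neither passed: the log2 fold-changes were -0.34 (adjusted p = 0.791) and -0.35 (adjusted p = 0.687), and -0.35 (adjusted p = 0.158) and -0.36 (adjusted p = 0.0683) with the replicate block. In the edgeR fit without the libraries of 24-h experiment 2 they were -0.34 (adjusted p = 0.00385) and -0.35 (adjusted p = 0.0255), under the fold threshold. Groups that did not overlap were common in this protocol, with 21.6% of genes tested lower and 21.3% higher in this sense. BLVRA was the other gene without overlap, with 62.4, 62.0 and 64.9 CPM in the controls and 73.7, 68.6 and 67.0 CPM after daily PM2.5 (log2 0.14, adjusted p = 0.877).

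None of the 9 genes was called after daily exposure by the edgeR quasi-likelihood test, where 0.227% of genes were called. None had an unadjusted p under 0.05, and DESeq2, the likelihood ratio test and the replicate block (4.39% of genes called) called 0 of 9. These p-values do not rest on the spread of the repeated libraries alone, because all 15 libraries share 1 estimate of the spread per gene. For TFRC, the SD was 7.79% of the mean in the repeated controls and 8.46% after daily PM2.5, against 51.1% in the 24-h controls. The log2 fold-changes of HMOX2, BLVRB and FECH were 0.15, 0.15 and -0.01.

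The responses were compared with each other in the same fit. The response to daily 1 µg/cm2 was below that to 30 µg/cm2 for 24 h by 3.08 on the log2 scale for HMOX1 (SE 0.367, adjusted p = 0.00144), by 2.63 for FTL (SE 0.375, adjusted p = 0.00314) and by 2.36 for FTH1 (SE 0.274, adjusted p = 0.00117), where 0.977% of genes were called lower. The dose and the protocol both differ in this comparison. TFRC had a difference of -1.39 that did not pass (adjusted p = 0.261), and it passed with the replicate block (-1.54, adjusted p = 0.000758), where 7.82% of genes were called lower. It also passed without experiment 2 (-1.20, adjusted p = 1.65e-06) and without a filter (-1.37, adjusted p = 0.0479). Leaving out experiment 2 brought calls of BLVRA (0.66, adjusted p = 0.000839) and BLVRB (-0.68, adjusted p = 0.000596) as well.

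At the same dose of 1 µg/cm2, the daily response differed from the 24-h response by -0.85 for FTL (SE 0.370, adjusted p = 0.688) and by -0.31 for HMOX1 (adjusted p = 0.918). With the replicate block, the difference for FTL was -0.88 (SE 0.212, adjusted p = 0.0637), and without the libraries of experiment 2 it was -0.84 and passed (adjusted p = 0.00948), as did that of SLC40A1 (-0.62, adjusted p = 0.0201). The edgeR quasi-likelihood test called none of the 9 genes and 0% of all genes here. FTL alone had an unadjusted p under 0.05, and DESeq2, the likelihood ratio test and the replicate block (1.03% of genes called) called 0 of 9.

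The controls of the protocols also differed. Against the 24-h controls, the repeated controls were lower by 1.58 on the log2 scale for HMOX1 (SE 0.261, adjusted p = 0.000646), by 1.15 for HMOX2 (SE 0.168, adjusted p = 0.000277), by 0.84 for FTL (SE 0.263, adjusted p = 0.0274) and by 1.52 for TFRC (SE 0.412, adjusted p = 0.0135), with all 9 pairs of libraries lower. These 4 genes were called lower where 10.8% of all genes were. The call of FTL was lost without the control of experiment 2 (log2 -0.57, adjusted p = 0.117), with the libraries of experiment 2 left out (log2 -0.56, adjusted p = 0.00338, under the fold threshold) and without any 1 of the repeated controls (adjusted p = 0.067 to 0.0871). That of TFRC was lost without the 24-h control of experiment 3 (log2 -1.36, adjusted p = 0.0507) or the repeated control of experiment 1 (log2 -1.47, adjusted p = 0.0518). FTH1 had a log2 difference of -0.15 (adjusted p = 0.582), FECH of -0.35 (adjusted p = 0.0222, under the fold threshold) and BLVRA of -0.52 (adjusted p = 0.171). All 9 pairs of libraries were lower for FECH and BLVRA too. The share of all genes without overlap between these controls is not given here. BLVRB was at 0.46 (adjusted p = 0.361) and SLC40A1 at 0.33 (adjusted p = 0.427). Without experiment 2, BLVRB (0.95, adjusted p = 2.29e-07) and SLC40A1 (0.77, adjusted p = 7.25e-05) were called, and SLC40A1 also without the experiment 2 control alone (0.76, adjusted p = 0.0406). The protocols are separate experiments, so that time in culture, handling and batch cannot be told apart.

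The other genes of heme and iron metabolism were read from 7 lists of 66 genes, of which 59 passed the filter on low counts. At 30 µg/cm2, 6 were called higher and 4 lower, where 3.82% and 4.24% of all genes tested were, with a median log2 fold-change of 0.08 over the 59. Of 7 heme synthesis genes, 1 was called: ALAS1, the first enzyme of the pathway, stood at 65.8, 60.3 and 72.4 CPM in the controls and at 147, 124 and 143 CPM after treatment (log2 1.06, SE 0.117, adjusted p = 9.37e-05, edgeR). Its rise held under all 26 alternatives.

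Of 12 genes that carry or bind heme and porphyrin, HPX (hemopexin, which binds free heme) was called higher at a low level of 1.02 to 2.35 CPM in the group means (log2 1.18, adjusted p = 0.0373), and 9 of 26 alternatives lost the call. FLVCR2 fell by 1.42 on the log2 scale (adjusted p = 0.00394), from 12.2, 21.9 and 13.96 CPM in the controls to 4.73, 8.50 and 4.64 CPM, a call lost with only the compared libraries fitted (adjusted p = 0.0780). It shares 332 exon bases with TTLL5 on the same strand and 972 with FLVCR2-AS1. SLC48A1, a heme transporter, had a log2 fold-change of 0.59 and was not called (adjusted p = 0.0998).

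Of 11 genes of iron uptake and reduction, 1 was called higher and 3 lower. The metalloreductase STEAP4 fell by 2.36 on the log2 scale (SE 0.510, adjusted p = 0.00944), from 11.2, 23.2 and 10.2 CPM to 1.61, 6.00 and 0.958 CPM. STEAP2, of the same family, rose by 0.67 (adjusted p = 0.0131), the metal transporter SLC39A8 fell by 0.85 (adjusted p = 0.00954) and the ferric reductase CYBRD1 fell by 0.64 (adjusted p = 0.0263). Those 3 calls were lost under 5, 3 and 5 of 26 alternatives, and that of STEAP4 under 2. CYBRD1 stood at 122, 207 and 121 CPM in the controls and at 98.1, 91.1 and 99.8 CPM after treatment. Its log2 fold-change was -0.34 without the control of experiment 2 (adjusted p = 0.0625) and -0.32, under the fold threshold, without all libraries of experiment 2 (adjusted p = 0.00427). SLC39A14, an iron and zinc transporter, was not called (log2 0.41, adjusted p = 0.146).

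None of the 6 genes that regulate or load ferritin was called at 30 µg/cm2 by edgeR, DESeq2, the likelihood ratio test or the replicate block, and 2 (ACO1 and FBXL5) had an unadjusted p under 0.05 in the edgeR fit. ACO1 and IREB2, the iron regulatory proteins that bind the hairpin, had log2 fold-changes of -0.27 (adjusted p = 0.182) and 0.15 (adjusted p = 0.781), and NCOA4, the receptor for ferritin turnover, one of -0.16 (adjusted p = 0.573). Of 15 genes of iron-sulphur cluster assembly, the mitochondrial chaperone HSPA9 was called higher (log2 0.85, adjusted p = 0.0138). That call was lost with only the compared libraries fitted (adjusted p = 0.133) and without the treated library of experiment 1 (adjusted p = 0.0598) or 3 (adjusted p = 0.0671). Neither of the 2 tested genes of export and systemic control, HFE and TMPRSS6, was called against the control by any of these fits, and HFE, the one with an unadjusted p under 0.05, had an adjusted p of 0.0309 at a log2 fold-change of -0.58, under the fold threshold.

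Among 6 regulators of HMOX1 transcription, the small Maf proteins MAFF and MAFG rose. MAFF had 18.3, 8.57 and 19.8 CPM in the controls and 77.6, 41.3 and 80.5 CPM at 30 µg/cm2 (log2 2.09, SE 0.282, adjusted p = 0.000378), a call that held under all 26 alternatives. MAFG rose by 1.10 on the log2 scale (SE 0.238, adjusted p = 0.00969), which was lost with only the compared libraries fitted (adjusted p = 0.0554). NFE2L2, the oxidant-responsive activator, had an RNA log2 fold-change of -0.02 (adjusted p = 0.945), and BACH1, the heme-sensing repressor, one of 0.40 (adjusted p = 0.461). Protein was not measured. A search of RefSeq promoter windows (GRCh38, 250 bases before to 50 after the start) for TGACNNNGC, the core of the antioxidant response element, on both strands found it in 1 of the 7 genes with an entry (FECH) and in 13.3% of all windows. HMOX1 and FTH1 had no entry and were not searched. Sequence outside these windows was not searched for any gene.

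Against 1 µg/cm2 in place of the control, 5 of the 59 genes were called higher at 30 µg/cm2 (ALAS1, HSPA9, MAFF, MAFG and MAFK) and 4 lower (FLVCR2, SLC39A8, STEAP4 and HFE), where 3.62% and 4.22% of all genes tested were. HFE, which takes part in the control of hepcidin, fell by 0.79 on the log2 scale (adjusted p = 0.00621), a call lost under 1 of 26 alternatives. MAFK, the remaining small Maf protein, rose by 0.83 (adjusted p = 0.0488), a call lost under 16 of them, and that of MAFG was lost under 5, with a log2 fold-change of 0.60 without the experiment 2 library at 1 µg/cm2 (adjusted p = 0.0590).

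At 1 µg/cm2, after daily exposure and between the responses at 1 µg/cm2, edgeR called 0 of these 59 genes, with 0, 6 and 2 at an unadjusted p under 0.05, and DESeq2, the likelihood ratio test and the replicate block called 0 in each. The response of ALAS1 to daily exposure was below that to 30 µg/cm2 by 1.16 on the log2 scale (adjusted p = 0.00314). Between the protocols' controls, 2 of the 59 were called higher (STEAP2 and MAFG) and 6 lower (ACO1, UROD, ABCB6, FLVCR2, NFS1 and PCBP1), where 11.1% of all genes tested were called higher and 10.8% lower. Of 25 alternatives, 9 lost the call of FLVCR2, 5 that of PCBP1, 3 that of MAFG and 1 that of STEAP2. FLVCR2 had a log2 difference of -0.75 with all libraries, -0.49 without the control of experiment 2 (adjusted p = 0.165) and -0.48 without all libraries of experiment 2 (adjusted p = 0.0033). ACO1 fell most, from 188, 186 and 200 CPM in the 24-h controls to 88.8, 85.3 and 91.7 CPM in the repeated controls (log2 -1.11, SE 0.119, adjusted p = 2.96e-05).

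**Figure D4:**
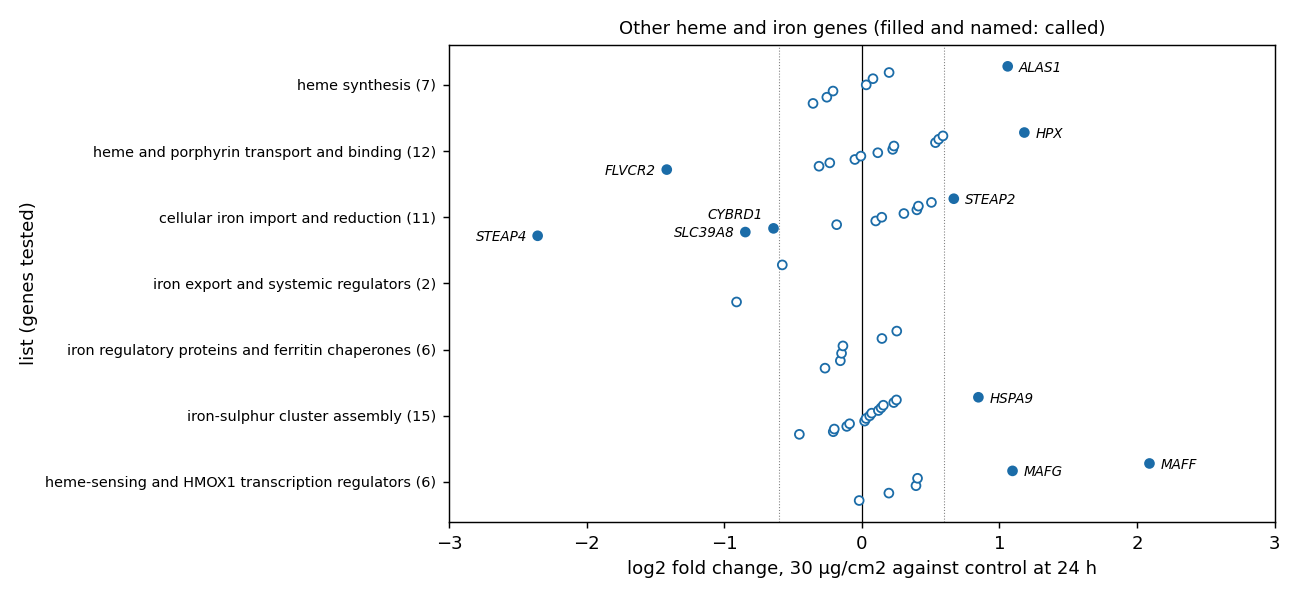
Log2 fold-change at 30 µg/cm2 against the 24-h control for the 59 tested genes of 7 heme and iron lists, each point a gene, filled and named where it passed both thresholds (dotted lines at 0.6 in each direction). MAFF at 2.09 and STEAP4 at -2.36 are the ends of the range, and the 6 ferritin regulators and chaperones lie between -0.27 and 0.25.

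Genes outside these lists whose pattern was most like that of HMOX1, FTL and TFRC were found by the mean absolute difference in log2 CPM over the 15 libraries after each gene was centred on its own mean. For TFRC they were AKAP12, F3, SEMA7A, HSPA1A and ENC1, at differences of 0.204 to 0.27, where the median gene tested differed by 1.1. For FTL they were FTLP3, ZMIZ1-AS1, FTH1P15, MT1G and TIMP1 (0.267 to 0.403), which include 2 ferritin pseudogenes that may hold reads of the parents. For HMOX1 they were HTRA3, MSRB3-AS1, ZMIZ1-AS1, NQO1 and ZNF469 (0.415 to 0.479). NQO1, a quinone reductase, had mean levels of 218 CPM in the 24-h controls, 410 CPM at 1 µg/cm2, 839 CPM at 30 µg/cm2, 67.8 CPM in the repeated controls and 74.5 CPM after daily exposure. Several of the others were under 1 CPM in some groups.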

How the data were processed

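The authors deposited 1 table of raw counts per gene for all 15 libraries, from single-end 50-base reads that STAR 2.5.3 aligned and featureCounts counted, with the exon coordinates and length of each gene. The labels name hg19, while 57370 of 57437 gene identifiers shared with a GENCODE annotation of GRCh38 lie at the same place there. None of 705 genes that lie wholly under exons of the other strand had a count, so strand was not used and reads on shared bases were dropped. Libraries held 21460981 to 34724765 counted reads (median 29243177), and 3 counts correspond to 0.0864 to 0.14 CPM. That limit covers counting error only. Here, counts were fitted in R 4.3.3 with edgeR 4.0.16 (filterByExpr by condition, TMM, quasi-likelihood in the earlier mode, all 15 libraries, no block). A gene is called where its Benjamini-Hochberg adjusted p is under 0.05 and its log2 fold-change at least 0.6 in size. SEs were derived from the log2 fold-change and its F statistic. Exact permutation tests used scipy 1.17.1. Deviations of same-numbered libraries from their group means correlated at 0.201 to 0.721 in the 24-h protocol and 0.121 to 0.181 in the repeated one. Those of differently numbered libraries correlated at -0.683 to 0.453 and at -0.127 to -0.0341. The ranges overlap at 24 h, where libraries of experiments 1 and 3 reached 0.453. The series text gives the number as a batch, so the experiment number was fitted as a replicate block within each protocol, as an alternative. Other alternatives were RLE and upper quartile scaling, no filter or 1 CPM in 3 libraries, DESeq2 1.42.0, the likelihood ratio test, the current mode of edgeR, only the compared groups, pseudogene counts added to the parent, each library left out, and 24-h experiment 2 left out. The fits were tested on simulated data. The members, gene lists, marker lists and tests were chosen with earlier results of these data known. One gene of the erythroid marker list is not reported here, and the summed level of that list leaves it out. Named are the 9 members, called genes of the lists (at most 6 per list and comparison), 8 further iron and heme genes, the ferritin pseudogenes with most counts, and the 5 genes nearest in pattern to HMOX1, FTL and TFRC.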

Additional observations from a re-analysis of the deposited data

Results flagged for a closer look

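Of the 9 genes and the 59 others tested, 4 responded differently to PM2.5 in the repeated protocol at 1 µg/cm2 and the 24-h protocol at 30 µg/cm2. The difference itself was tested (edgeR quasi-likelihood, Benjamini-Hochberg adjustment over 17599 genes), and 0.977% of all genes tested were called lower. The log2 difference, daily response minus 24-h response, was -3.08 for HMOX1 (adjusted p = 0.00144), -2.63 for FTL (adjusted p = 0.00314), -2.36 for FTH1 (adjusted p = 0.00117) and -1.16 for ALAS1 (adjusted p = 0.00314). For HMOX1, the 3 libraries after daily exposure were at 1.11, 1.04 and 1.24 times their controls and the 3 libraries at 30 µg/cm2 at 14.4, 4.11 and 13.3 times theirs. Dose, duration and batch differ together here and cannot be told apart. Groups of 3 libraries are too small for a test of single libraries that stand apart.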

How the results depend on the processing

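The calls of HMOX1, FTL and FTH1 at 30 µg/cm2 against the control held under all 26 alternatives, with log2 fold-changes of 3.07 to 3.78, 2.58 to 3.08 and 2.26 to 2.56. The replicate block called 6 of the 9 genes at 30 µg/cm2 against the control, 5 against 1 µg/cm2, 1 at 1 µg/cm2 against the control and, of the 59 other genes, 11 in the contrast of the daily with the 30 µg/cm2 response. Among the 9 genes it changed no call beyond those given above. Without the libraries of 24-h experiment 2, 5, 5 and 2 of the 9 genes were called in these comparisons, 6 in that contrast and 2 between the responses at 1 µg/cm2, with 13 and 6 of the other genes in the last pair, and HMOX2 at 30 µg/cm2 turned to -0.0262 on the log2 scale. Without a filter on low counts, 1 gene was called at 1 µg/cm2. No filter, DESeq2 and the likelihood ratio test each called 3 of the other genes in the contrast with the 30 µg/cm2 response. With only the compared libraries fitted, 2 and 1 of the other genes were called at 30 µg/cm2 against the control and against 1 µg/cm2. Upper quartile scaling turned FECH after daily exposure to 0.0178. Shares of all genes called were given for the edgeR fit of all libraries and the replicate block only. The counts of called genes under the other settings, here and with single libraries left out, stand without such a share.

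With each library left out in turn, 3 to 5 of the 9 genes were called at 30 against 1 µg/cm2 and 2 to 4 between the controls. Of the other genes, 4 to 12 were called at 30 µg/cm2 against the control, 5 to 12 against 1 µg/cm2, 5 to 10 between the controls and 1 to 8 in the contrast with the 30 µg/cm2 response. The lowest count at 30 µg/cm2 came without its experiment 1 library and the highest without its experiment 2 library, against 10 with all libraries. At 1 µg/cm2 the log2 fold-change ranged from -0.40 to 0.17 for BLVRA, -0.12 to 0.99 for BLVRB and -0.65 to 0.0673 for TFRC, with each end of the range set by leaving out a library of experiment 2. After daily exposure it ranged from -0.14 to 0.22 for FTH1 and -0.0298 to 0.0103 for FECH, and the log2 difference of the FTL to FTH1 ratio from -0.14 to 0.23. The cause of these shifts was not tested. Where a library was left out of a condition, the 2 that remained shared the spread of all conditions. Genes of a few CPM, such as HPX, rest on few counts and their fold-changes are less certain.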
